A study of Mus musculus with 9 samples.

Results

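The comparison described here set aortas of mice given a helper-dependent adenovirus that carries human apolipoprotein E3 (HDAd-gE3) against aortas of mice given the same kind of vector without a cassette (HDAd-0), so that the vector itself is shared and the apolipoprotein E3 cassette is what differs. Members were chosen by the group label alone, 3 arrays of each vector group, which makes 6 of the 9 arrays of the series, and 18193 genes were compared. All animals were female APOE-/- mice on a C57BL/6 background, 8 weeks old per the labels, and were fed a diet with 0.2% cholesterol and 10% coconut oil for 30 weeks, so the controls carry the Apoe deletion and advanced lesions too. Each vector was injected into a tail vein, and aortas were taken 10 days later. The third group, PBS, received phosphate buffered saline and is used here as a point of reference only. Each array holds RNA of 3 pooled aortas, cut from the sinus to the arch, so the spread between arrays is a spread between pools and not between animals. The promoter that drives the cassette, and the tissue that takes up the vector, are not given in the labels.

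Apolipoprotein E is a protein of plasma lipoproteins, made mostly by the liver and also by macrophages. It binds lipoprotein receptors of the cell surface and heparan sulfate proteoglycans, and through them clears chylomicron and very low density lipoprotein remnants. Mice without it accumulate remnants and develop lesions filled with macrophage foam cells. Helper-dependent adenoviral vectors keep no viral genes and, given into a vein, are taken up mainly by the liver. A vector of this kind can still stir innate immune signalling through its capsid, which is why a vector without a cassette is the control.

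Values are log2 intensities after RMA, a method that corrects background, normalizes arrays to a shared distribution and summarises the probes of each probe set. One probe set, the brightest, stands for each gene. A difference is the HDAd-gE3 mean minus the HDAd-0 mean on the log2 scale, given with its standard error (SE) from a limma fit over all 9 arrays. The p-values are two-sided and measure only the spread between these pools. The lowest correlation between any pair of arrays was 0.991. Aortic wall and lesion markers were present on the 6 arrays: Myh11 (smooth muscle myosin) read 13.29 to 13.55, Cdh5 (endothelial cadherin) 8.69 to 9.34 and Cd68 (a macrophage marker) 12.89 to 13.08. Signal of other tissues and of blood precursors was present too, and differed between arrays of one group. HDAd-gE3 replicate 4 stood highest for neutrophil and red cell precursor genes, and HDAd-0 replicate 5 for liver and skeletal muscle genes. Some results are also given without both arrays. Probe sets near the 3' end of Actb and Gapdh exceeded those near the 5' end by 0.72, 0.67 and 0.81 with HDAd-gE3 and by 0.96, 1.08 and 0.76 with HDAd-0, a sign of RNA integrity that moved with the groups; its part in the results was not tested beyond a fit that carries it as a covariate.

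Promoter sequences of 5 genes are shown first. These are the only gene past the threshold (Coch), 3 genes of myeloid cells at the lower end (Aoah, Cd33 and Inpp5d) and Ldb3. Ldb3 is the member of the smooth muscle contractile list with the smallest p, and is also a heart muscle gene. The sequences are RefSeq's on GRCm38.p6, from 250 bases before to 50 bases after the transcription start, written 5′ to 3′ on the gene's strand. Capitals mark every match, on either strand, to the motifs named further on. In Coch this is the letters TATAAA on the opposite strand, just past the start, and so only a letter match. Aoah has an interferon-stimulated response element (ISRE), and the PU.1 core is in Cd33 and in 2 places in Inpp5d. Ldb3 has a CArG box followed by an NF-kB motif.
Coch (chr12:51593091-51593390, plus strand): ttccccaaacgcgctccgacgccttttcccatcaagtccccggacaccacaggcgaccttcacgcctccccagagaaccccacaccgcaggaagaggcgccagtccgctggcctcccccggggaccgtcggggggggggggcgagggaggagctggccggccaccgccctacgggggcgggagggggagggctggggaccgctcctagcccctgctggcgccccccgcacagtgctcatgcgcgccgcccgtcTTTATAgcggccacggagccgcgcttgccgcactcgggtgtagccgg
Aoah (chr13:20793863-20794162, plus strand): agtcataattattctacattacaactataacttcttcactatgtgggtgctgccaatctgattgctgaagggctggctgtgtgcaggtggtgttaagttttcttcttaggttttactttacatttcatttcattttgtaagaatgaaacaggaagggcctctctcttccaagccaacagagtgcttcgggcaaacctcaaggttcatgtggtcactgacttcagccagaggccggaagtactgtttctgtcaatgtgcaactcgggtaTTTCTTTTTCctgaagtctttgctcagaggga
Cd33 (chr7:43533122-43533421, minus strand): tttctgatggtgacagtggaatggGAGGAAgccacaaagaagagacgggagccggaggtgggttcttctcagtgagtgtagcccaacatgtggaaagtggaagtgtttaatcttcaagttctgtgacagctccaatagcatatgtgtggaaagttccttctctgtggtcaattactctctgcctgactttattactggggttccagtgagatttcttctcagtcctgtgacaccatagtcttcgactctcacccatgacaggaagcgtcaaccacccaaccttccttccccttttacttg
Inpp5d (chr1:87620062-87620361, plus strand): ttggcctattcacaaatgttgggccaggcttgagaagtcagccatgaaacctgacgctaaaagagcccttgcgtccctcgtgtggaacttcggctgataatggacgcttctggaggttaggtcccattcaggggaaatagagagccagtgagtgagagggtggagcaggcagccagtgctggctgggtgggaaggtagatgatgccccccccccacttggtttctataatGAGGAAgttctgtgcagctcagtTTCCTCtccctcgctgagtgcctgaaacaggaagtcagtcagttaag
Ldb3 (chr14:34588632-34588931, minus strand, 1 of 2 promoters listed): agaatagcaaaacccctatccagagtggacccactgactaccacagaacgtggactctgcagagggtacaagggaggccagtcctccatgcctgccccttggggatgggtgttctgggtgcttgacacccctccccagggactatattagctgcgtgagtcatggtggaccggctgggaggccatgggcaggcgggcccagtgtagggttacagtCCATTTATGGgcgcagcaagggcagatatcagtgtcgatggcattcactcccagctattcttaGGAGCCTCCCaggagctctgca
The Coch promoter is the only one of the 5 that is rich in CpG, with 32 CpG dinucleotides. Aoah has 3, Cd33 has 4, Inpp5d has 6 and Ldb3 has 6 on average over its 2 promoters. Atp2b4, a gene of the higher end whose promoter is not shown, has 4 and no match to these motifs.

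Coch, which encodes cochlin, a secreted protein of the extracellular matrix, was the single gene whose difference passed an adjusted p of 0.05 (0.0055% of the genes tested). Coch read 7.25, 7.56 and 7.53 on HDAd-gE3 replicates 2, 3 and 4, against 8.52, 8.46 and 8.58 on HDAd-0 replicates 3, 4 and 5. The 3 PBS arrays read 8.70, 8.85 and 8.59. The HDAd-gE3 arrays lay below all the others, by −1.08 ± 0.10 against HDAd-0 (a 2.11-fold lower level, adjusted p 0.0486 in limma). The call is close to the threshold and rests on 1 probe set, so no second probe set could check it. Leaving out any single array other than HDAd-0 replicate 4 ended it, at adjusted p values in limma from 0.0898 to 0.211, while the difference stayed between −1.13 and −0.98. Without HDAd-0 replicate 4, 10 genes passed. With HDAd-gE3 replicate 4 and HDAd-0 replicate 5 both dropped, 1 gene passed, but it was not Coch (adjusted p 0.106 in limma). The next genes of the ranking have adjusted p of 0.19, and 189 genes (148 lower and 41 higher) lie under 0.2. Everything below on single genes other than Coch is therefore a description of the ranking and not a call.

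The ranking of genes by their brightest probe sets leaned towards lower values. With HDAd-gE3, 1710 genes were lower at an unadjusted p under 0.05 (9.4%) and 630 were higher (3.46%). All HDAd-gE3 arrays lay below all HDAd-0 arrays for 2185 genes (12%) and above them for 773 genes (4.25%). The mean was lower for 61.7% of the genes, and the median difference over all genes was −0.04. The lean went with signal level: in the dimmest 3639 genes 351 were lower and 29 higher at that p, with a median difference of −0.08, in the next class of 3638 genes 507 and 94, with a median of −0.10, and in the brightest 3639 genes 208 were lower and 143 higher, with a median of −0.00. Array medians ran from 6.67 to 6.77, and centring each array on its own turned the split into 3438 lower and 277 higher and moved the median over all genes to −0.10, a shift that every difference below shares. Keeping the 9315 genes whose mean in any of the 3 groups reached 8.58 gave 841 lower and 541 higher. Such a filter also admits genes only through the group where they are high. Taking the second brightest probe set of 9010 genes gave 581 and 496. Over all 45037 probe sets 3044 were lower and 2737 higher, and the 16752 further probe sets of genes leaned the other way, with 1028 lower and 1127 higher. The size of the excess of lower genes thus depended on level, probe set and scaling. The median of all genes in a class of level was −0.08, −0.10, −0.04, −0.01 and −0.00 from the dimmest to the brightest. For lists of dimmer genes this matters most: it was −0.10 at the level of the skeletal muscle, erythroid and B and plasma cell lists. At the level of the mast cell, dendritic cell, chemokine, liver and neutrophil lists it was −0.04.

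**Figure D1:**
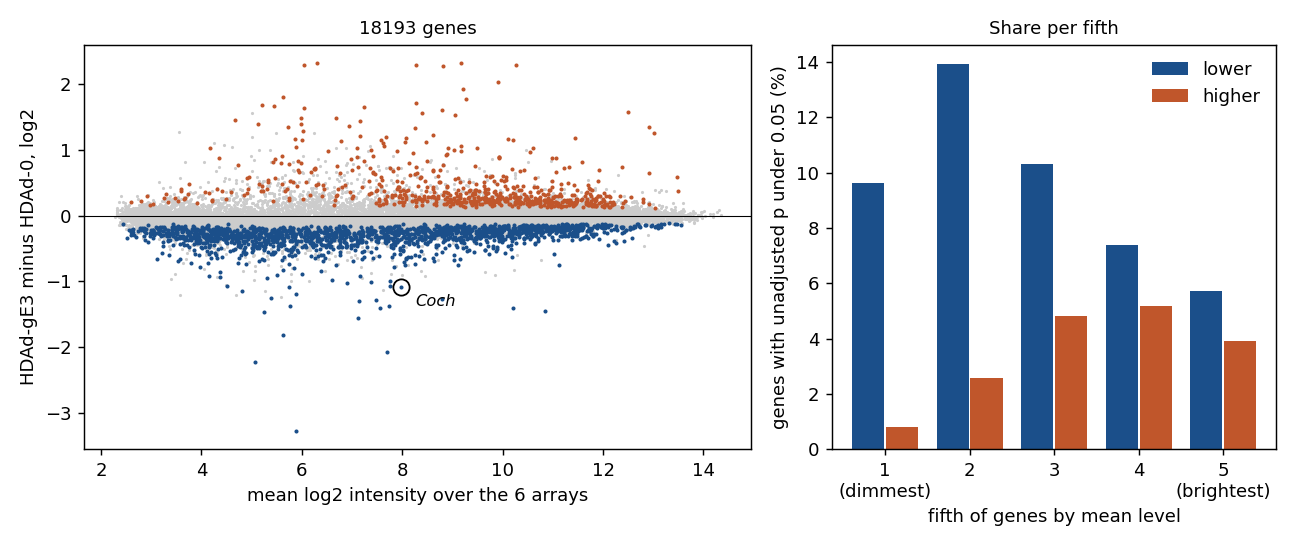
Left, difference of each of the 18193 genes (HDAd-gE3 minus HDAd-0, log2) against its mean log2 intensity over the 6 arrays; blue and orange points have an unadjusted p under 0.05, and Coch is circled. Right, percent of genes in each of 5 equal classes by level that were lower (blue) or higher (orange) at that p, which is 9.65, 13.9, 10.3, 7.39 and 5.72 for lower genes and 0.80, 2.58, 4.81, 5.2 and 3.93 for higher genes from the dimmest to the brightest class; lower genes peak in the second class and higher genes in the fourth.

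By size the picture was different. At a difference of at least 0.5, 250 genes were lower and 279 higher, and at 1 or more 29 were lower and 65 higher. Many of the largest differences belonged to genes of other tissues or of blood precursors. Mpo, the peroxidase of neutrophil granules, read 6.47, 6.22 and 9.69 with HDAd-gE3 and 5.65, 5.21 and 4.58 with HDAd-0. The array labelled HDAd-gE3 replicate 4 alone stood more than 3 log2 units above its group. Camp (an antimicrobial peptide of neutrophil granules) differed by 2.31 ± 0.58 and Hemgn (a nuclear protein of blood precursors) by 2.29 ± 0.82. Sln (sarcolipin) differed by 2.28 ± 0.69 and Mybphl by 2.27 ± 0.55; both are muscle genes most abundant in the atria of the heart. Tnnc2 (fast skeletal troponin C) differed by −2.07 ± 0.64 and Hpx (hemopexin, a liver plasma protein) by −1.40 ± 0.35, and in both HDAd-0 replicate 5 stood highest.

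Among genes with a mean of at least 7 and arrays that do not overlap, those at the lower end with the smallest p were small in size and even across replicates. Aoah, an enzyme that removes acyl chains from bacterial lipopolysaccharide, read 8.81, 8.76 and 8.65 against 9.37, 9.40 and 9.23. Cd33, a sialic acid-binding receptor of myeloid cells, read 7.49, 7.53 and 7.37 against 7.85, 7.88 and 7.90. Traf1, an adaptor of TNF receptors, read 8.09, 8.06 and 7.90 against 8.41, 8.42 and 8.51. In each the 3 HDAd-gE3 arrays lay below the 3 HDAd-0 arrays, and for Cd33 and Traf1 the PBS arrays lay between. The differences were −0.59 ± 0.07, −0.41 ± 0.06 and −0.44 ± 0.07, each with an adjusted p of 0.191 in limma. Second probe sets gave −0.64 for Aoah and −0.19 for Traf1, on the same side.

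The rest of that end held Klhl6 (−0.35 ± 0.06), an adaptor of a ubiquitin ligase, and Plxnc1 (−0.38 ± 0.06), a semaphorin receptor of leukocytes. Cd55, which speeds the decay of complement convertases, read 9.31, 9.53 and 9.35 against 9.91, 9.88 and 9.94, while PBS read 9.53, 9.37 and 9.26. HDAd-gE3 thus overlapped PBS, and HDAd-0 stood above both. Aldh1a2, which makes retinoic acid, was also highest with HDAd-0: it read 8.43, 8.45 and 8.49 with HDAd-gE3, 8.81, 8.84 and 9.06 with HDAd-0, and 8.35, 8.37 and 8.28 with PBS. Prrt4 (−0.52, and −0.05 on its second probe set), Ppl (periplakin, −0.45), Aldh3a1 (an aldehyde dehydrogenase, −0.54) and Gal3st2 (a sulfotransferase, −0.42) complete it.

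At the higher end the same rule gave 12 genes. Cap2, an actin-binding protein of muscle, read 10.45, 10.19 and 10.25 with HDAd-gE3 against 9.84, 9.68 and 9.80 with HDAd-0. Atp2b4, a calcium pump of the plasma membrane, read 8.50, 8.37 and 8.76 against 7.47, 8.05 and 7.72. Their PBS values, 10.19 to 10.35 and 8.50 to 8.73, lay at the HDAd-gE3 level, so that HDAd-0 was the low group. The differences were 0.52 ± 0.09 and 0.80 ± 0.16 (adjusted p 0.191 in limma for both).

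Camk2b, a calcium- and calmodulin-dependent kinase, had another order: 8.96, 9.16 and 9.24 with HDAd-gE3, 8.75, 8.63 and 8.66 with HDAd-0, and 8.44, 8.42 and 8.27 with PBS. Ramp1, the partner of the receptor for calcitonin gene-related peptide, likewise stood above both other groups (10.43 to 10.68 against 10.06 to 10.08 and 9.89 to 10.07). Pde3a, a cyclic nucleotide phosphodiesterase, read 7.71 to 7.85 against 7.09 to 7.44. Prmt1, the main arginine methyltransferase, read 10.69 to 10.75 against 10.28 to 10.50. In these genes no HDAd-gE3 array overlapped an HDAd-0 array. Differences ran from 0.26 (Mical3, a regulator of actin and vesicle traffic) to 0.80 (Atp2b4), with P3h2 (0.57, a collagen hydroxylase), Akap6 (0.61, an anchor of protein kinase A), Pip5k1b (0.53, a phosphoinositide kinase) and Ptges3l (0.50) between. Cnot3, a subunit of the deadenylase that shortens mRNA tails, differed by 0.67 ± 0.11 on its brightest probe set and by −0.13 on its second.

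**Figure D2:**
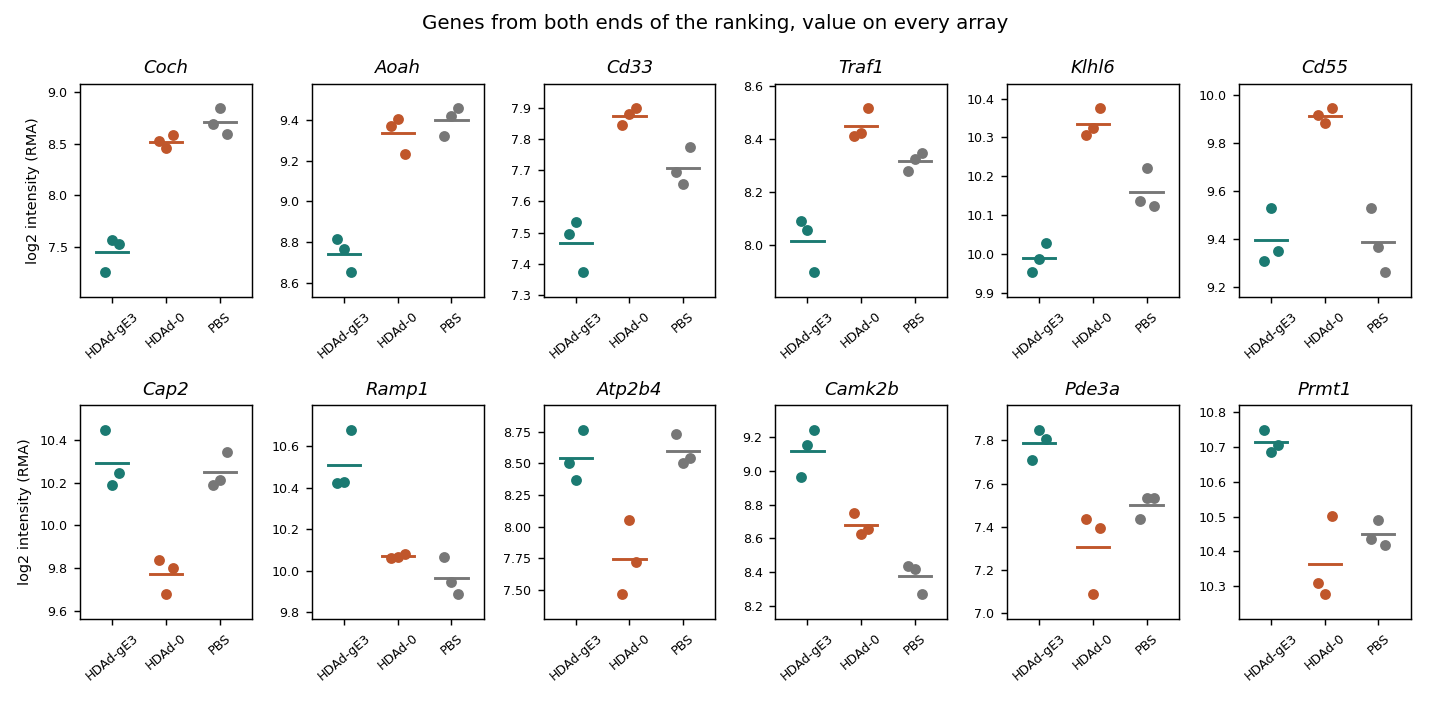
Log2 intensity of 12 genes on each of the 9 arrays (points) with the group mean (line); the vertical scale differs between panels. In the upper row (Coch, Aoah, Cd33, Traf1, Klhl6, Cd55) the HDAd-gE3 arrays lie below the HDAd-0 arrays, in the lower row (Cap2, Ramp1, Atp2b4, Camk2b, Pde3a, Prmt1) above them.

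Macrophages and other myeloid cells read their surroundings through receptors that carry or borrow an immunoreceptor tyrosine-based activation motif (ITAM), which recruits the kinase Syk. All 23 measured genes of the Fc receptor and ITAM list had a lower mean with HDAd-gE3, 12 of them at an unadjusted p under 0.05 (background 9.4%), and in 14 the arrays did not overlap (background 12%). Their median difference was −0.22, against −0.01 for genes of like level. It was −0.15 both with array weights and with the RNA integrity covariate, −0.17 with HDAd-0 replicate 4 dropped and −0.26 with HDAd-0 replicate 3 dropped. Plcg2, the phospholipase that this pathway activates, read 9.36, 9.55 and 9.56 against 9.91, 10.07 and 9.84. Inpp5d (SHIP1), a phosphatase that dampens the pathway, read 10.56, 10.65 and 10.64 against 10.80, 10.95 and 10.96. Activating and dampening members thus stood on the same side. Syk itself differed by −0.33 ± 0.09, the exchange factor Vav1 by −0.34 ± 0.08, the adaptor Blnk by −0.28 ± 0.06 and the kinase Btk by −0.32 ± 0.09 (adjusted p in limma from 0.196 for Blnk to 0.251 for Btk). The 12 members with a second probe set were lower on it as well.

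The 26 measured monocyte and macrophage markers, a list also known from earlier results on these arrays, were all lower in mean. Their median was −0.18, against −0.00 for genes of like level. At an unadjusted p under 0.05, 13 were lower (50%, background 9.4%). Aif1 (Iba1, an actin-binding protein of macrophages) read 10.34, 10.39 and 10.40 against 10.68, 10.63 and 10.87, and Adgre1, an adhesion receptor of macrophages, read 11.25, 11.25 and 11.37 against 11.48, 11.84 and 11.48. Csf1r, the receptor on which macrophages depend, differed by −0.19 ± 0.07. Cd68 differed by −0.09 ± 0.06 and its arrays overlapped. In pooled tissue, fewer cells of a type and less RNA per cell cannot be told apart. The list mean on each array, taken as the deviation from each gene's mean over 9 arrays, was −0.12, −0.05 and −0.07 with HDAd-gE3, 0.07, 0.13 and 0.13 with HDAd-0 and −0.05, −0.02 and −0.02 with PBS. For the ITAM list it was −0.14, −0.08 and −0.10, then 0.05, 0.22 and 0.06, then 0.00, −0.00 and −0.02. Neither list's vector arrays overlapped.

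Endotoxin and nucleic acid sensing followed the same side. Of 28 measured Toll-like receptor and NF-kB genes, 24 had a lower mean. At an unadjusted p under 0.05, 11 were lower (39.3%, background 9.4%) and none was higher. The list median was −0.20, but −0.10 with HDAd-0 replicate 4 dropped, −0.13 with array weights and −0.07 with the RNA integrity covariate. Tlr1, a receptor for bacterial lipopeptides, read 9.81, 9.75 and 9.83 against 10.06, 10.24 and 10.29. Tlr13, a receptor for bacterial ribosomal RNA, read 10.35, 10.40 and 10.45 against 10.62, 10.79 and 10.61. Irak3, which restrains Toll-like receptor signalling, differed by −0.31 ± 0.07, though its second probe set gave 0.05. Tlr2 (−0.28 ± 0.14) and Tlr4 (−0.16 ± 0.07) overlapped between groups.

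Of 16 interleukin-1 and inflammasome genes 15 had a lower mean, 6 at that p (37.5%, background 9.4%), with a median of −0.15. Il18 read 9.34, 9.33 and 9.20 against 9.68, 9.49 and 9.76. The pore-forming Gsdmd differed by −0.20 ± 0.07 and Casp1, the protease that cleaves it, by −0.15 ± 0.06. Il1b overlapped between the groups, at 9.12, 9.67 and 9.38 against 9.13, 9.59 and 9.49, and the sign of its difference turned with several arrays left out.

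Complement genes were lower in mean for 15 of 16, with a median of −0.10, and 6 were lower at that p (37.5%, background 9.4%). With arrays centred the median was −0.16, and on second probe sets −0.03, where 6 of 10 members kept their sign. They included C1qc of the classical pathway, at 12.63, 12.64 and 12.62 against 12.77, 12.79 and 12.82, and C2, at 10.29, 10.21 and 10.28 against 10.66, 10.51 and 10.64. Cfp (properdin), the stabiliser of the alternative pathway, differed by −0.37 ± 0.07 on its brightest probe set and by 0.69 on its second, so its direction depends on the probe set. Regulators such as Cd55 stood on the same side as components.

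Among other leukocytes, the mast cell list held 9 measured genes, 7 lower in mean and 4 at an unadjusted p under 0.05 (44.4%, background 9.4%). Cpa3, the mast cell carboxypeptidase, read 7.69, 7.69 and 8.00 against 8.64, 8.33 and 8.30, and Cma1 (chymase) differed by −0.37 ± 0.11. For Tpsb2 and Kit, which made up the count, the second probe set went the other way (0.02 and 0.23 against −0.30 and −0.36), and the list median of −0.30 turned to 0.12 on second probe sets. Of 12 dendritic cell genes 11 were lower in mean and 4 at that p (33.3%). Itgax (CD11c) read 11.64, 11.63 and 11.68 against 11.88, 12.04 and 11.88, and Siglech, a plasmacytoid dendritic cell receptor, 5.85, 5.83 and 5.86 against 6.10, 6.35 and 6.43. T and NK cell genes had 2 of 19 lower at that p and B and plasma cell genes 1 of 15, shares of 10.5% and 6.67%, near the background of 9.4%. The list means of both were widely spread between arrays of one group.

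Of 33 chemokine and chemokine receptor genes 30 had a lower mean, 11 at that p (33.3%, background 9.4%), with a median of −0.27. The median was −0.18 with HDAd-gE3 replicate 2 dropped, −0.17 with HDAd-0 replicate 4 dropped and −0.13 with array weights. Ccl24 (eotaxin-2), which attracts eosinophils and is made by alternatively activated macrophages, read 6.20, 5.83 and 5.88 with HDAd-gE3, 6.92, 6.74 and 6.75 with HDAd-0 and 6.91, 7.18 and 7.42 with PBS. The HDAd-gE3 arrays lay below both other groups (−0.83 ± 0.14 against HDAd-0, adjusted p 0.191 in limma). Ackr1, the atypical chemokine receptor of venular endothelium, instead read 8.43, 8.38 and 8.40 against 8.72, 8.70 and 8.84, with PBS at 8.12 to 8.40. Interferon-stimulated genes, for which the vector itself is a known trigger, had 23 of 27 lower in mean and 6 at that p (22.2%). Their median of −0.13 moved to −0.03 with HDAd-0 replicate 5 dropped and to −0.24 with HDAd-0 replicate 4 dropped, so that it rests on which HDAd-0 array is kept; with the RNA integrity covariate it was −0.31.

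**Figure D3:**
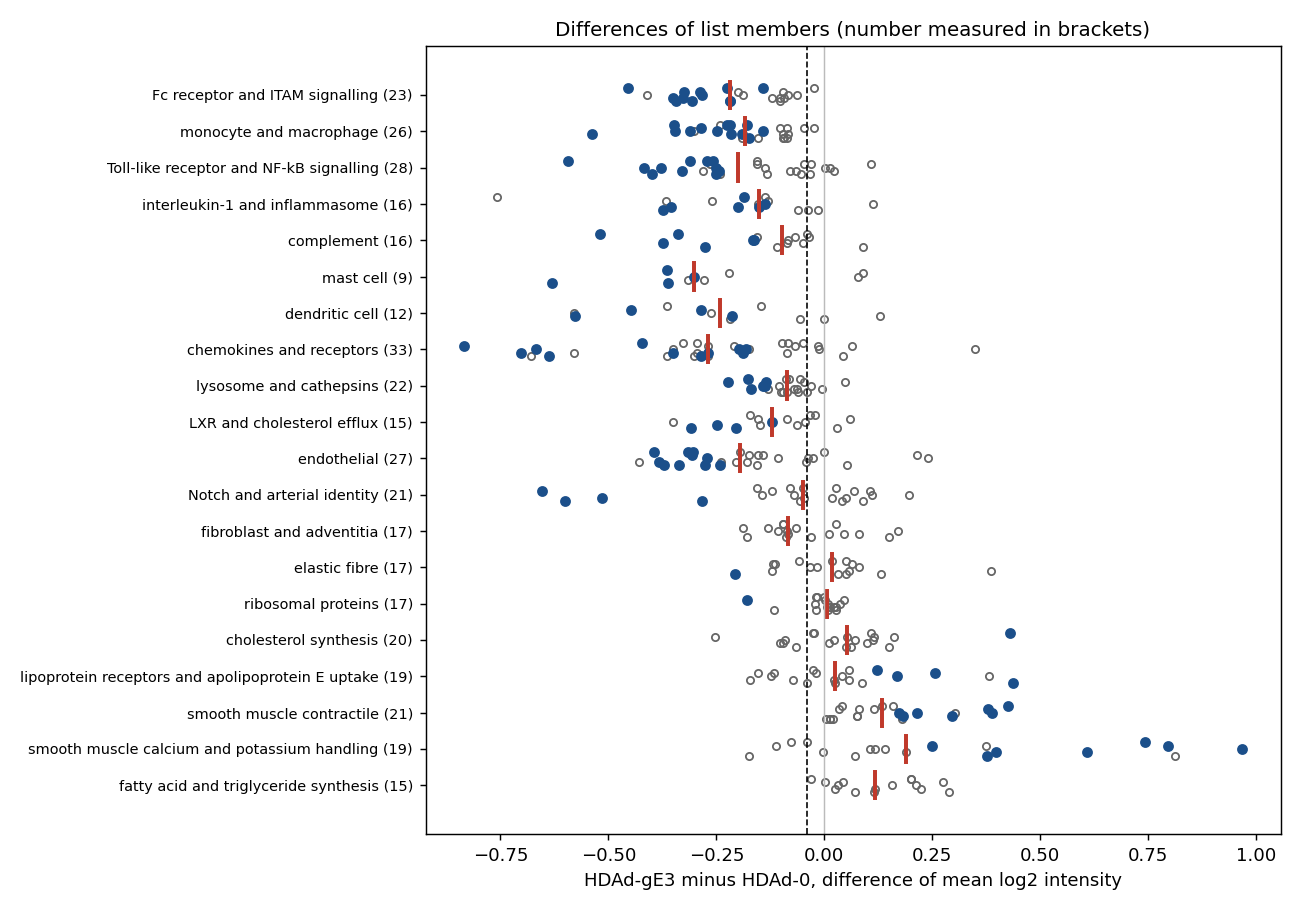
Difference of every measured member of 20 gene lists (points; filled blue, unadjusted p under 0.05), with the list median (red) and the median of all genes, −0.04 (dashed). Members of the Fc receptor and ITAM list and of the macrophage list all lie below 0, and members of the smooth muscle contractile list all lie above it.

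Endothelial genes also leaned lower: 24 of 27 had a lower mean, with a median of −0.20 (−0.31 with the RNA integrity covariate). At an unadjusted p under 0.05, 10 were lower (37.0%, background 9.4%). Vwf (von Willebrand factor) read 12.22, 12.20 and 12.24 against 12.66, 12.48 and 12.67. Tie1, an angiopoietin co-receptor, read 9.83, 9.82 and 9.83 against 10.25, 10.14 and 10.20. S1pr1, the sphingosine-1-phosphate receptor that keeps junctions tight, read 7.88, 7.92 and 7.92 against 8.27, 8.26 and 8.19. PBS arrays read 12.16 to 12.23, 9.50 to 9.71 and 7.62 to 7.75. So Vwf with HDAd-gE3 was at the PBS level, whereas Tie1 and S1pr1 with HDAd-gE3 lay between PBS and HDAd-0. Over the list, medians against PBS were 0.08 with HDAd-gE3 and 0.34 with HDAd-0, comparisons that share the PBS arrays. The endothelial median between the vectors shrank to −0.08 on the 4 vector arrays that remain when both arrays that stand apart (HDAd-gE3 replicate 4, HDAd-0 replicate 5) are dropped.

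Arterial endothelium is set apart by Notch signalling and its targets. The Notch and arterial list as a whole had no steady direction: 12 of 21 were lower, and the median was −0.05, −0.03 with HDAd-0 replicate 5 or HDAd-gE3 replicate 2 dropped, −0.11 with arrays centred, 0.03 on the mean of the probe sets and 0.01 on second probe sets. The 4 members lower at an unadjusted p under 0.05 (19.0%, background 9.4%) are all genes of endothelium. Notch4, the endothelial Notch receptor, read 8.75, 8.70 and 9.02 against 9.65, 9.43 and 9.35. Bmx, a kinase of arterial endothelium, read 7.81, 7.98 and 8.10 against 8.69, 8.44 and 8.56. Gja4, the gap junction protein connexin 37, read 9.26, 9.45 and 9.50 against 9.81, 9.92 and 10.01, and the ligand Dll4 6.55, 6.56 and 6.44 against 6.74, 6.68 and 6.98. The differences were −0.65 ± 0.13, −0.60 ± 0.11, −0.52 ± 0.09 and −0.28 ± 0.09. Second probe sets of Notch4 and Dll4 gave −0.49 and −0.36. Of the TGF-beta and BMP list only Bmp6 (−0.63 ± 0.12) and Bmp4 (−0.57 ± 0.19), growth factors that endothelium secretes, had a lower mean at an unadjusted p under 0.05; 2 of 26 is 7.69%, under the background of 9.4%, and the list median was −0.02 with 12 members higher. Nos3, the endothelial nitric oxide synthase, read 9.24, 9.26 and 9.20 against 9.49, 9.40 and 9.54.

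The cassette encodes a ligand of lipoprotein receptors, so genes of lipid handling were examined by role. Mouse Apoe, deleted in these animals, read 7.05, 7.08 and 6.72 against 7.15, 7.16 and 7.64. Whether its probe set lies outside the deleted part, and whether it reads human transcripts, is not known from the files, so it checks neither the deletion nor the cassette. Among receptors and uptake proteins, 8 of 19 had a lower mean and the median was 0.02, which was −0.01 with HDAd-0 replicate 3 dropped, 0.05 with replicate 4 of either vector dropped, 0.01 with any other single vector array dropped and −0.04 with arrays centred; the 4 with an unadjusted p under 0.05 were all higher (background 3.46%). Sorl1, a sorting receptor that binds apolipoprotein E, read at least 11.83 on each HDAd-gE3 array (mean 11.92 ± 0.08, SD, n = 3) against 11.63, 11.79 and 11.58 with HDAd-0. Vldlr, the very low density lipoprotein receptor, read 12.09, 12.13 and 12.12 against 11.95, 11.89 and 11.98, and Sdc4, a heparan sulfate proteoglycan, 13.06, 13.10 and 13.10 against 12.96, 12.97 and 12.98. In these 3 the groups did not overlap, and second probe sets were higher too (0.19, 0.30 and 0.21). Lrp8, the apolipoprotein E receptor 2, differed by 0.44 ± 0.15 with overlapping arrays. Lrp1, a receptor for lipoprotein remnants, read 12.41, 12.45 and 12.43 against 12.46, 12.57 and 12.38, and its second probe set gave 0.38.

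Liver X receptors are activated by oxysterols and turn on cholesterol efflux genes. Of the 15 genes measured here 13 had a lower mean, 4 at an unadjusted p under 0.05 (26.7%, background 9.4%), with a median of −0.12. Abca1, the efflux pump, read 12.43, 12.41 and 12.46 against 12.58, 12.71 and 12.62; its second probe set gave 0.08. Srebf1, the regulator of fatty acid synthesis, read 10.82, 10.83 and 10.82 against 11.07, 11.16 and 10.99, below PBS (11.09 to 11.30) as well. Pltp, a phospholipid transfer protein, read 13.37 to 13.39 against 13.48 to 13.53. Abcg1, a partner of Abca1, differed by −0.06 ± 0.09. Over this list HDAd-gE3 stood at a median of −0.06 against PBS and HDAd-0 at 0.04.

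Foam cell and lysosome genes leaned the same way by small amounts. Lysosomal genes were lower in mean for 21 of 22, with a median of −0.09. Ctsz (cathepsin Z) read 13.43, 13.40 and 13.40 against 13.52, 13.59 and 13.51, and Gaa, the lysosomal glucosidase, differed by −0.22 ± 0.08. Gpnmb, abundant in foam cells, read 13.07, 13.12 and 13.11 against 13.19, 13.27 and 13.21. The scavenger receptor Msr1 differed by −0.15 ± 0.07. Cholesterol synthesis genes showed no such lean: 7 of 20 were lower in mean, the median was 0.05 (−0.00 with HDAd-0 replicate 4 dropped, 0.08 with HDAd-0 replicate 5 dropped, 0.02 if HDAd-gE3 replicate 4 is the array dropped, and −0.01 with arrays centred) and the 1 at an unadjusted p under 0.05 was Fdps, higher by 0.43 ± 0.15, whose second probe set gave −0.21. Fatty acid and triglyceride synthesis genes were higher in mean for 14 of 15 with a median of 0.12, yet none had an unadjusted p under 0.05. That median ran from 0.05 (HDAd-gE3 replicate 2 dropped) to 0.18 (HDAd-gE3 replicate 4 dropped), and was 0.05 with arrays centred and −0.00 with the covariate for RNA integrity. Fasn, the fatty acid synthase, read 12.59, 12.28 and 12.51 against 12.34, 12.18 and 12.22.

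On the other side stood smooth muscle genes. All 21 measured genes of the contractile list had a higher mean with HDAd-gE3, 7 at an unadjusted p under 0.05 (background 3.46%) and 8 without overlap (background 4.25%), with a median of 0.13 (0.07 with arrays centred). The list mean was 0.08, 0.06 and 0.09 on the HDAd-gE3 arrays and −0.07, −0.06 and −0.11 on the HDAd-0 arrays, with PBS between at −0.01, −0.00 and 0.03. Ldb3, a scaffold of the contractile apparatus and also a heart muscle gene, read 12.13, 11.91 and 11.77 against 11.40, 11.55 and 11.58. Within each vector group its arrays stood in the order of the cardiac list mean given below. Myocd, the coactivator that drives smooth muscle genes with SRF, read 11.83, 12.10 and 12.02 against 11.77, 11.29 and 11.71. Actg2 (gamma smooth muscle actin) read 12.07, 12.07 and 12.14 against 11.94, 11.63 and 11.82, and Cnn1 (calponin) 12.03, 11.98 and 12.19 against 11.95, 11.88 and 11.72. Of the widely used contractile markers, Acta2 differed by 0.01 ± 0.05, Myh11 by 0.08 ± 0.07 and Mylk by 0.00 ± 0.07, with overlapping arrays, and with arrays centred Acta2 and Mylk turned to −0.05 and −0.06. Second probe sets gave 0.57 for Acta2, 0.17 for Myh11 and 0.16 for Mylk. The list median was 0.07 with HDAd-gE3 replicate 4 dropped and 0.06 with HDAd-0 replicate 5 dropped too.

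Genes of calcium and potassium handling had a median of 0.19 (0.12 with arrays centred, 0.34 on the mean of the probe sets, 0.31 with both arrays that stand apart dropped). Of 19 genes 14 were higher in mean, 7 of them at that p (36.8%, background 3.46%). Beside Atp2b4 and Akap6 they were Cacnb2 (a calcium channel subunit, 7.09, 6.80 and 6.86 against 6.36, 6.48 and 6.72), Ryr2 (the ryanodine receptor, 12.23, 11.69 and 11.15 against 10.56, 10.99 and 11.31), Cacna1c, Casq2 and Kcnmb1. Arrays overlapped for Ryr2, Cacna1c, Casq2 and Kcnmb1. Ryr2, Casq2, Cacna1c, Akap6 and Cacnb2 are also heart muscle genes. The list mean was 0.25, 0.035 and −0.10 with HDAd-gE3 against −0.35, −0.20 and −0.14 with HDAd-0. Within each vector group this is the order of the cardiac list mean given below. Kcnmb1, a potassium channel subunit particular to smooth muscle, read 9.54, 9.81 and 9.93 against 9.60, 9.39 and 9.54. Over this list both vector groups stood below PBS, HDAd-gE3 by a median of −0.14 and HDAd-0 by −0.30.

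Heart muscle moved with these genes. Of 18 cardiac genes 15 had a higher mean, 7 at an unadjusted p under 0.05 (38.9%, background 3.46%), with a median of 0.39. Nppa, the atrial natriuretic peptide, read 13.65, 13.37 and 12.85 with HDAd-gE3, 11.95, 10.64 and 12.56 with HDAd-0 and 13.11, 13.13 and 12.95 with PBS. The cardiac list mean was 0.75, 0.18 and −0.57 against −0.76, −0.64 and −0.10, and 0.45, 0.40 and 0.29 with PBS. The contractile list mean on the same vector arrays was 0.08, 0.06 and 0.09 against −0.07, −0.06 and −0.11. The dissection began at the aortic sinus, and the part that heart tissue has in the smooth muscle results was not tested further. The cardiac median ranged from 0.18 with replicate 2 of HDAd-gE3 dropped to 0.81 with its replicate 4 dropped, and was 0.25 with HDAd-0 replicate 3 dropped, 0.85 with both arrays that stand apart dropped and 0.21 with the RNA integrity covariate.

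**Figure D4:**
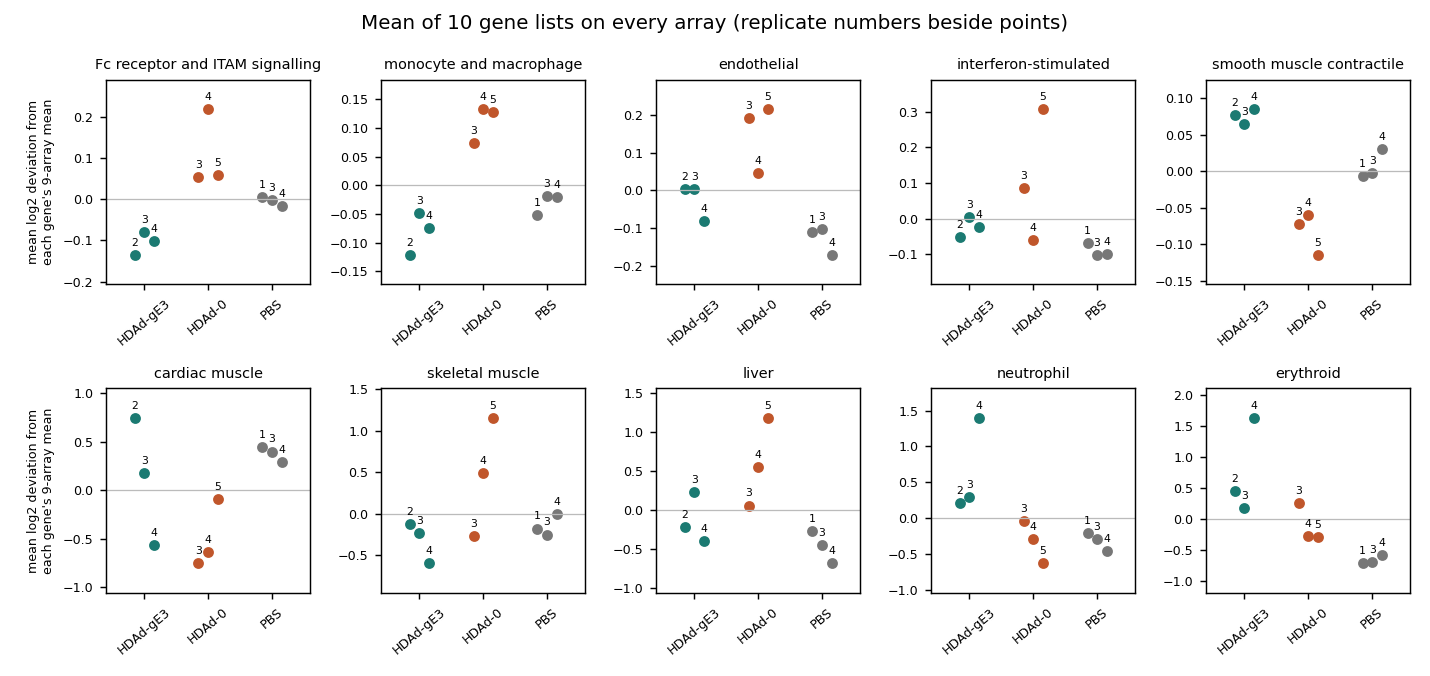
Mean of 10 gene lists on every array, as the log2 deviation from each gene's mean over the 9 arrays, with replicate numbers beside the points; the vertical scale differs between panels. The vector groups do not overlap for the ITAM, macrophage and smooth muscle contractile lists, while the liver, skeletal muscle, neutrophil and erythroid lists have one array far from its group (HDAd-0 replicate 5 or HDAd-gE3 replicate 4).

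Other tissues and blood also moved with the groups. Liver genes were lower in mean for 16 of 17 with a median of −0.82, which was −0.40 with HDAd-0 replicate 5 dropped, −0.52 with HDAd-gE3 replicate 4 dropped, −0.15 with both dropped, −0.44 with array weights or on second probe sets and −1.55 with the RNA integrity covariate. Their list mean was −0.21, 0.23 and −0.39 against 0.06, 0.55 and 1.18. Alb read 9.74, 10.47 and 9.21 against 9.56, 10.66 and 11.67. Saa1, an acute phase protein of liver that lesion cells also make, read 10.08, 9.48 and 10.79 against 10.96, 11.83 and 11.89. Skeletal muscle genes had a median of −0.65, which was −1.02 with HDAd-0 replicate 3 dropped, −0.46 with HDAd-0 replicate 5 dropped, −0.41 with both arrays that stand apart dropped, −1.24 with the RNA integrity covariate, −0.20 on second probe sets and 0.11 among the members that passed the filter on dim genes (list mean −0.12, −0.23 and −0.60 against −0.27, 0.49 and 1.16).

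Neutrophil genes were higher in mean for 15 of 16, with a median of 0.63, which was 0.46 with HDAd-gE3 replicate 4 dropped, 0.23 with both arrays that stand apart dropped and 1.06 with the RNA integrity covariate. S100a9, abundant in neutrophils, read 13.64, 13.75 and 13.89 against 13.36, 13.35 and 12.83, and Ngp, a granule protein, 10.27, 10.60 and 11.88 against 9.70, 8.51 and 8.47. Erythroid genes were higher for 8 of 9 with a median of 0.88, which was 0.45 with HDAd-gE3 replicate 4 dropped, 0.38 with both dropped and 0.51 with array weights. The list mean was 0.46, 0.18 and 1.64 with HDAd-gE3, 0.27, −0.27 and −0.29 with HDAd-0 and −0.71, −0.69 and −0.58 with PBS, below both vectors. Slc4a1, the anion exchanger of red cells, read 11.51, 11.06 and 11.95, then 11.17, 10.33 and 10.39, then 9.12, 8.98 and 9.66. The part of these tissues in the results for other genes was not tested. With both arrays that stand apart dropped, the macrophage median was −0.16 and the ITAM median −0.24.

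Many lists lay near the median of all genes. Ribosomal protein genes had a median of 0.01, proteasome genes 0.01, clock genes 0.02, elastic fibre genes 0.02 and fibrillar collagens 0.04, with at most 1 member of each at an unadjusted p under 0.05; all 5 turned to between −0.06 and −0.03 with arrays centred. Without any single vector array these 5 medians stayed between −0.02 and 0.09. Proliferation genes had a median of −0.03 and none at that p, but the median was −0.27 with replicate 4 of HDAd-gE3 dropped and 0.13 with its replicate 2 dropped. Electron transport genes were higher in mean for 23 of 26 with a median of 0.07 (0.14 with HDAd-gE3 replicate 4 dropped, 0.02 with either HDAd-gE3 replicate 2 or HDAd-0 replicate 4 dropped, 0.12 if HDAd-0 replicate 3 is, 0.17 with both arrays that stand apart dropped, 0.01 with arrays centred and −0.02 with the RNA integrity covariate) and none at that p. Of the interleukin-7 pathway, after which the series is named, 7 of 14 were lower in mean, and the median was −0.02 (−0.05 without HDAd-0 replicate 5). At that p 4 were lower (28.6%, background 9.4%) and 1 was higher (7.14%, background 3.46%). Il7 read 7.40, 7.45 and 7.54 against 7.66, 7.87 and 7.57, and Il7r 11.85, 11.92 and 11.85 against 12.03, 11.96 and 12.17. Jak3, the kinase that the receptor shares with other cytokines, read 7.22, 6.94 and 7.06 against 7.62, 7.51 and 7.28. None of the 3 passed the adjusted threshold (adjusted p 0.231 for Jak3 and 0.362 for Il7 and Il7r in limma).

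Against PBS, the 2 vector groups did not stand in one order. The macrophage list had a median of −0.06 with HDAd-gE3 and 0.08 with HDAd-0, and the ITAM list −0.05 and 0.09, so PBS lay between. For MHC class II genes the values were 0.14 and 0.37, for liver genes 0.32 and 1.23 and for erythroid genes 1.51 and 0.30, all above PBS. For fatty acid and triglyceride synthesis they were −0.03 and −0.15. These medians rest on the same PBS arrays and are given side by side only. Single genes differed likewise: Coch and Ccl24 with HDAd-gE3 lay below both other groups, Vwf and Cd55 at the PBS level, and Camk2b and Ramp1 above both.

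Promoters were found for 14367 of the genes. Genes with few CpG dinucleotides, a class rich in tissue-restricted genes, were lower more often. Of 2949 genes with at most 5 CpG, 14.3% were lower at an unadjusted p under 0.05 and 2.95% higher, and of 5680 genes with over 20 CpG, 7.09% were lower and 3.47% higher. Such genes are also dimmer, so the count was repeated on genes at or above the median level of 8.58, where 20.7% of 546 CpG-poor genes and 5.18% of 3901 CpG-rich genes were lower. At that level 7.33% and 4.03% were higher. Among the 200 genes with the lowest t the median was 7.6 CpG, against 16 among the 200 with the highest t and 17 over all genes.

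**Figure D5:**
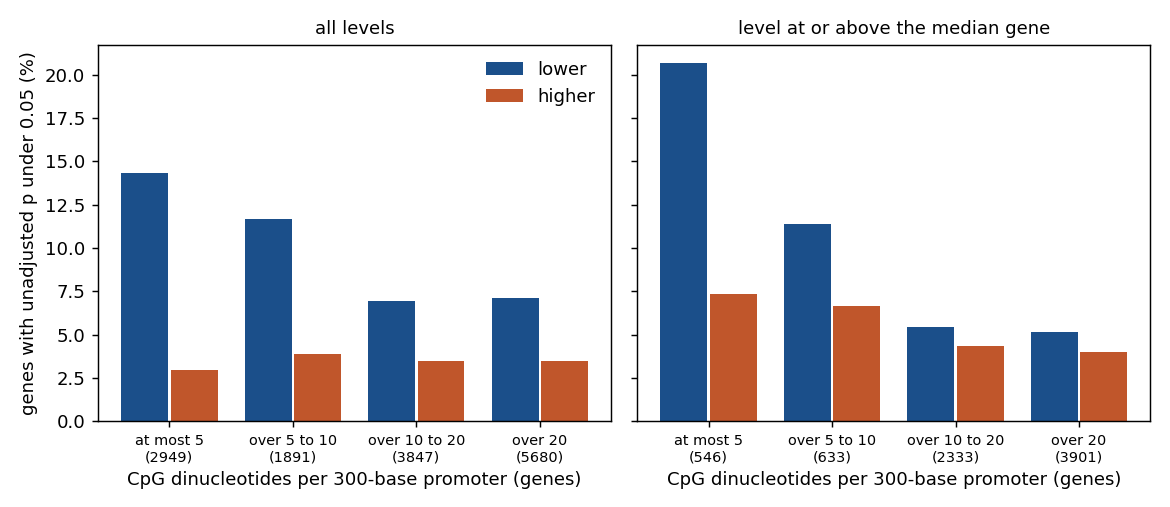
Percent of genes lower (blue) or higher (orange) with HDAd-gE3 at an unadjusted p under 0.05, by CpG dinucleotides per 300-base promoter (number of genes in brackets), for all genes and for those at or above the median level. The share lower is largest in genes with at most 5 CpG in both panels (14.3% and 20.7%).

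Motifs were counted as letter matches on both strands. The PU.1 core GAGGAA, read in myeloid promoters by the factor PU.1, was in 30.5% of all promoters, 35.5% of the 200 lowest and 31.0% of the 200 highest, and in 14 of 20 promoters of the ITAM list and 11 of 20 of the macrophage list. The ISRE, searched as GAAANNGAAA, was in 3.64% of all, 6.5% of the lowest and 2.5% of the highest. The cyclic AMP response element TGACGTCA was in 2.94% of all, 2.0% of the lowest and 6.0% of the highest. The CArG box, bound by SRF, was in 1.59%, 2.0% and 2.5%, and in 3 of 17 contractile and 3 of 16 cardiac promoters. The E-box CACGTG (10.3% of all, 9.0% and 6.5%), the TATA box TATAAA (11.5%, 13.5% and 13.5%) and the NF-kB motif (11.7%, 9.0% and 14.5%) were counted too. The ISRE and the PU.1 core can share bases at their ends. Over all genes, those with the ISRE had a median difference of −0.06 and those without it −0.04, and for the PU.1 core both were −0.04. A match is a run of letters, not a bound site.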

How the data were processed

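RNA of pooled aortas was labelled and hybridised to Affymetrix mouse arrays, 9 in all. The deposited values are log2 intensities of the authors' own RMA run, per the submitters' processing notes; scan batches are not given in the sources used here, and running numbers in the labels follow the treatment, so order and group cannot be told apart. Arrays give no read depth, and 3 arrays a group limit the precision. Of 45101 probe sets, 34945 name 1 gene, and 932 with several, 64 controls and 9160 with no listed gene were left out of gene results; the brightest probe set stands for a gene. No pair of arrays was a duplicate.

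Differences come from limma (3.58.1, R 4.3.3; lmFit and eBayes on the 3 groups) with Benjamini-Hochberg adjustment over 18193 genes and a threshold of 0.05, tested on simulated data; tables and figures used Python 3.11.15, pandas 2.3.3 and matplotlib 3.10.9. Groups do not overlap where every array of one lies below every array of the other. Genes and the 66 lists were chosen with earlier results of these data known. The text names genes past the threshold; per direction 12 genes by smallest p (mean at least 7, arrays not overlapping, unnamed models skipped) and 6 by largest difference (mean at least 6); up to 4 members a list by p; and Apoe, Il7 and Il7r. Abcg1, Acta2, Adgre1, Alb, Btk, Cacna1c, Casq2, Cd68, Cdh5, Cnn1, Csf1r, Il1b, Kcnmb1, Lrp1, Myh11, Mylk, Syk, Tlr2, Tlr4 and Vav1 fall outside this rule and were chosen after their values were seen. Scaling, array weights, a filter on dim genes, other probe sets, a replicate block, an intensity trend, the samples fitted, an RNA integrity covariate and left-out arrays were tried as alternatives. Replicate numbers 3 and 4 occur in both vector groups, but nothing in the labels pairs them. Promoter sequences are RefSeq's, matched by gene identifier.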

Additional observations from a re-analysis of the deposited data

Results flagged for a closer look

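Among the 9160 probe sets with no listed gene, which enter no comparison above, 1020 (11.1%) were higher with HDAd-gE3 at an unadjusted p under 0.05 in limma and 419 (4.57%) were lower, the opposite lean to that of the brightest probe set of each gene. None passed the adjusted threshold (smallest adjusted p 0.125 in limma). Their median signal was 4.66, 4.62 and 4.62 on the HDAd-gE3 arrays, 4.50, 4.66 and 4.54 on the HDAd-0 arrays and 4.61 to 4.65 on the PBS arrays, so HDAd-0 replicates 3 and 5 read lowest and replicate 4 stood with the other groups.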

How the results depend on the processing

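The count of genes past the adjusted threshold, 1 in the fit reported, was 1 with arrays centred, the mean of the probe sets or an intensity trend, 2 with the filter on dim genes and 0 with array weights, the second brightest probe set, only the 2 groups compared or the RNA integrity covariate; it ran from 0 to 10 with 1 array left out, and was 189 at a threshold of 0.2. Coch has 1 probe set, so it could not pass on second probe sets, and the mean of the probe sets left its difference unchanged. It passed the filter on dim genes only through its PBS mean. With array weights 2373 genes were lower and 824 higher at an unadjusted p under 0.05. With only the 2 groups compared these were 1360 and 427, and with the covariate 1177 and 659. Genes lower at that p numbered 3438 with arrays centred, 841 with the filter on dim genes and 581 on the second brightest probe set, and 1145 to 1990 with 1 array left out; genes higher numbered 277 with arrays centred and 463 to 743 with 1 array left out. All HDAd-gE3 arrays lay below all HDAd-0 arrays for 4657 genes with arrays centred and 1036 after the filter, and above for 303 with arrays centred.

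With the replicate number as a block, 0 genes passed (1647 lower and 676 higher at an unadjusted p under 0.05) and Coch had an adjusted p of 0.37 in limma. The deviations of same-numbered vector arrays correlated at 0.01 for replicate 3 and 0.1 for replicate 4. With so few shared numbers, this cannot tell whether the numbers pair the samples. Under this block the Notch and arterial median was 0.03, the chemokine median −0.17, the dendritic cell median −0.13, the liver median −0.38, the interferon-stimulated median −0.03, the LXR median −0.07 and the fatty acid synthesis median 0.07.

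Differences of single genes turned sign as follows. On the second brightest probe set they were 0.0809 for Abca1, 0.69 for Cfp, −0.13 for Cnot3, −0.21 for Fdps, 0.0493 for Irak3, 0.23 for Kit, 0.38 for Lrp1 and 0.0246 for Tpsb2, and on the mean of the probe sets 0.16 for Cfp and 0.17 for Lrp1. With arrays centred, Acta2 was −0.0505 and Mylk −0.0611; with the replicate block Abcg1 was 0.0775 and Il1b 0.16; with array weights Il1b was 0.21, and with the covariate Lrp1 was 0.0429. With both arrays that stand apart dropped, Acta2 was −0.0207, Il1b 0.0308, Myh11 −0.0048 and Mylk −0.0412. With 1 array left out, differences ran from −0.0093 to 0.0401 for Acta2, from −0.1268 to 0.0102 for Abcg1, from −0.0838 to 0.0094 for Lrp1, from −0.0414 to 0.0614 for Mylk and from −0.1537 to 0.12 for Il1b. Of 1992 values of the 109 genes over the alternatives, 1948 kept their direction and side of the threshold. Of 1249 list medians 165 moved by more than the spread between arrays. Both counts include settings that cannot change a difference: an intensity trend, only the 2 groups compared and a PBS array left out. All genes but Coch also began on the far side of the threshold, so these counts do not measure how steady the results are. The cause of these changes was not tested.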
